A study of Homo sapiens with 18 samples.

Results

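The genes described here are the 10 members of the MYC, MAX and MXD network (MYC, MYCN, MYCL, MAX, MLX, MXD1, MXI1, MXD3, MXD4 and MNT), taken by symbol from the 39496 genes of the deposited tables. All 10 were matched, and 9 passed the filter on low counts that left 20144 genes for testing. MYCN did not pass. RNA-seq had been done on 18 libraries of 2 human bladder cancer cell lines, UM-UC-3 and T24, both derived from transitional cell carcinoma and labelled as wild-type in genotype. In each line, cells received by Lipofectamine either siNC, the negative control siRNA, or a single ACAT1 siRNA, siACAT1-1 or siACAT1-2, which made 6 groups of 3 libraries from repeated experiments numbered 1 to 3. ACAT1 encodes a mitochondrial acetyl-CoA acetyltransferase. UM-UC-3 cells were grown in MEM and T24 cells in RPMI medium, so cell line and medium cannot be told apart. The study asked how ACAT1 bears on the cell cycle through AKT, GSK3β and c-Myc, and the values below concern the mRNA side of that network only.

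MYC, MYCN and MYCL are transcription factors that bind DNA as heterodimers with MAX, at the sequence CACGTG known as the E-box, and activate genes of growth, ribosome formation and metabolism. MXD1, MXI1, MXD3, MXD4 and MNT also pair with MAX, at the same sites, and recruit the SIN3 corepressor and histone deacetylases, so they oppose MYC. MLX is a MAX-like partner that pairs with MXD1, MXD4, MNT and with the nutrient sensors MondoA (MLXIP) and ChREBP (MLXIPL). MXD1, MXI1 and MXD4 are known from cells that leave the cycle and differentiate, while MXD3 is known from cells in S phase and MNT is widely expressed.

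The total count per library ranged from 25163490 to 34417230. ACAT1 itself was at 44.1 to 47.4 RPKM (counts per kilobase of exon, scaled to the library's total count) in the 3 siNC libraries of UM-UC-3 and at 1.83 to 3.59 in its 6 knockdown libraries, and at 14.6 to 17.1 against 0.671 to 1.46 in T24. No library went against its label. In bulk RNA, fewer cells of a type and less RNA per cell cannot be told apart. Of 15 urothelial markers in the table, UPK1B, UPK3A, KRT5 and CDH1 stayed below 0.1 RPKM in every library, and 3 markers in UM-UC-3 and 7 in T24 reached 1 RPKM in any library. The summed level of the urothelial list was 131 to 211 RPKM in UM-UC-3 and 302 to 1101 in T24. The keratins KRT8, KRT18 and KRT7 made up most of it. Their medians were 295, 235 and 223 RPKM in T24 and 31.4, 108 and 2.93 in UM-UC-3. None of the 5 immune and 3 endothelial markers reached 1 RPKM in any library, and 1 of 2 erythroid and 1 of 4 fibroblast markers did in each line. The 3 T24 libraries numbered 2 stood apart from the other 6 T24 libraries, with a urothelial sum of 302 to 429 RPKM against 745 to 1101.

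Levels between genes are compared as RPKM, which divides by exon length. MYC was the only MYC-family gene expressed at a high level in both lines, at 13.8 to 59.3 RPKM in UM-UC-3 and 9.69 to 32.6 in T24. MYCN, the family member known from neuroblastoma, had 2 counts in each of 3 libraries and 0 in the other 15, at most 0.0273 RPKM. MYCL, known from small cell lung cancer, was at 0.0739 to 0.825 RPKM in UM-UC-3 and at 0 to 0.0421 in T24. The common partner MAX was at 13.3 to 22.5 RPKM in UM-UC-3 and 17.1 to 29.8 in T24, and MLX was at 20.5 to 25.5 and 20.96 to 33.1. Among the antagonists MXD3 had the highest level in every library, at 15.5 to 23.0 RPKM over both lines. MXD3 made up 34.9 to 60.5% of the summed RPKM of the 5 antagonists in UM-UC-3 and 50.1 to 78.4% in T24. MXD3 shares 40.4% of its 5154 exon bases with PRELID1 on the other strand and RAB24 on the same strand, and no other member shares more than 18.1%, so its level is less certain than those of the others. The ratio of MYC to the antagonist sum, both in RPKM, ran from 0.341 to 1.32 in UM-UC-3 and from 0.331 to 1.01 in T24. The ranges of the 3 groups overlapped in both lines.

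**Figure D1:**
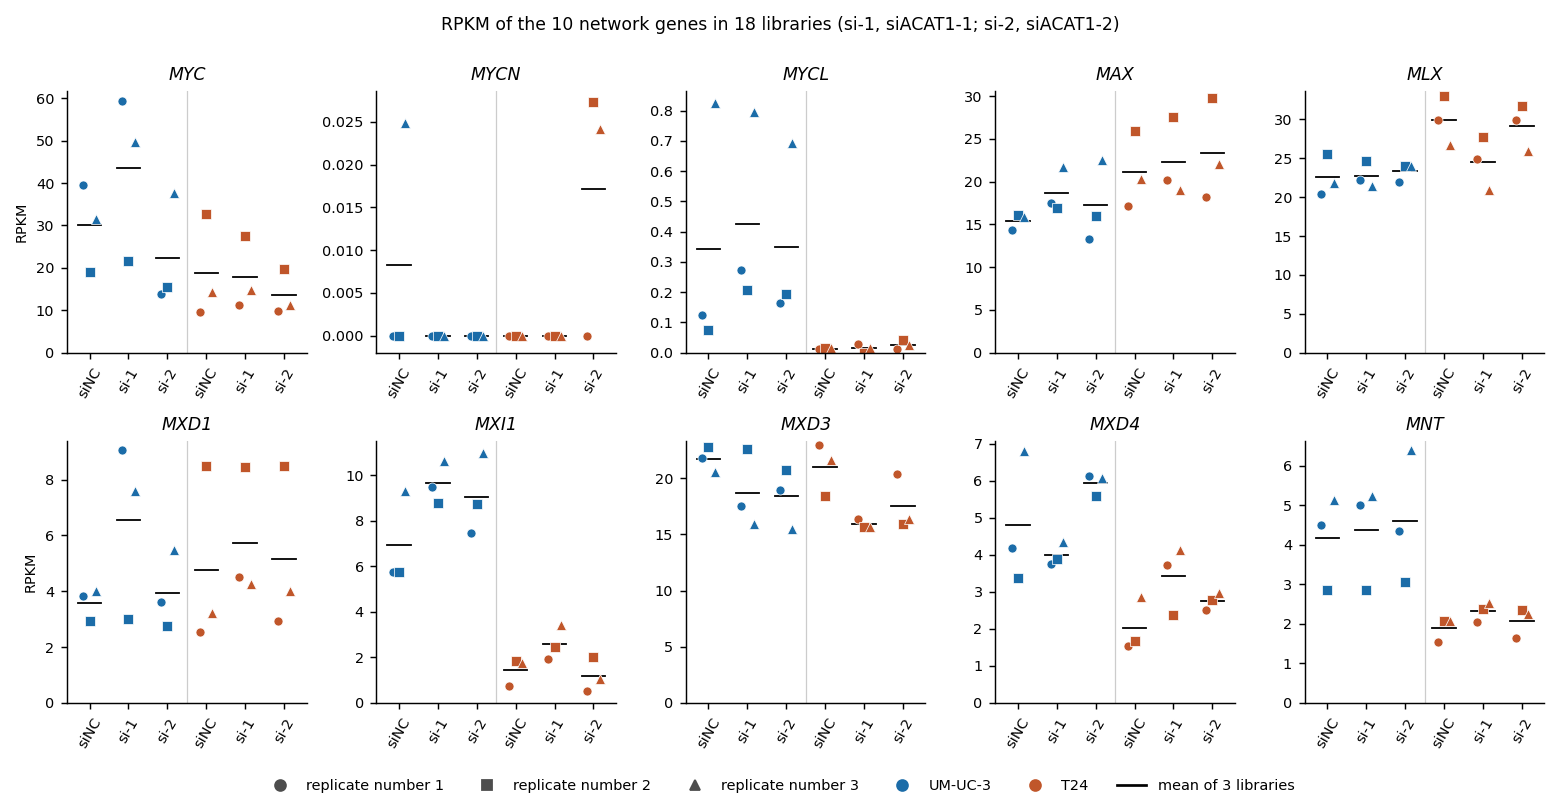
RPKM (y axis, linear) of each of the 10 genes in every library of the 6 groups (x axis), with the replicate number as the marker shape, the cell line as the color and a line for the mean of 3 libraries. MYC in T24 is highest in the 3 libraries numbered 2 (19.7 to 32.6 RPKM), MYCL is highest in the 3 UM-UC-3 libraries numbered 3 (0.692 to 0.825), and MXI1 lies at 5.74 to 10.99 in UM-UC-3 and at 0.508 to 3.40 in T24.

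MYC mRNA was not called lower or higher after ACAT1 knockdown. All positions are those of the deposited table, on GRCh38. MYC lies on chromosome 8 (127735434 to 127741434, plus strand) and shares no exon base with another gene of the table. In UM-UC-3 the siNC libraries numbered 1, 2 and 3 had 39.5, 18.9 and 31.5 RPKM of MYC. With siACAT1-1 the same numbers had 59.3, 21.7 and 49.8 RPKM, and with siACAT1-2 they had 13.8, 15.4 and 37.7 RPKM. The siACAT1-1 value was thus above siNC in 3 of 3 numbers and the siACAT1-2 value below it in 2 of 3. In T24 the siNC libraries had 9.69, 32.6 and 14.4 RPKM, siACAT1-1 had 11.4, 27.6 and 14.8, and siACAT1-2 had 9.79, 19.7 and 11.3. In each T24 group the library numbered 2 had the highest MYC value, and the 3 groups overlapped. In order of their means the groups ran UM-UC-3 siACAT1-1 (43.6 RPKM), UM-UC-3 siNC (30.0), UM-UC-3 siACAT1-2 (22.3), T24 siNC (18.9), T24 siACAT1-1 (17.9) and T24 siACAT1-2 (13.6), and the range of each overlapped that of the next.

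Over both siRNAs and both lines, the log2 fold change of MYC was -0.11 ± 0.29 (SE; 95% interval -0.72 to 0.50; 12 knockdown against 6 siNC libraries; adjusted p = 0.953, edgeR quasi-likelihood test). With the replicate number as a block within each line it was -0.09 ± 0.14 (-0.37 to 0.20, adjusted p = 0.756). The sign was not stable: without the T24 siNC library numbered 2 the value was 0.19, and without the UM-UC-3 siNC library numbered 1 it was 0.02. In UM-UC-3 the siACAT1-1 group differed from siNC by 0.53 ± 0.47 (adjusted p = 0.990) and the siACAT1-2 group by -0.48 ± 0.47 (adjusted p = 1). In T24 these differences were -0.05 ± 0.47 (adjusted p = 0.995) and -0.45 ± 0.47 (adjusted p = 0.898). The comparisons of both siRNAs within a line share its siNC libraries.

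MYC was lower with siACAT1-2 than with siACAT1-1 in 6 of 6 pairs of libraries with the same line and number. On the scale of log2 CPM, which here is scaled to the library's total and by the TMM factor that corrects for composition, the pairs differed by 0.15 to 2.09 with a median difference of -0.49. The fitted difference was -0.70 ± 0.34 (95% interval -1.41 to 0.01, adjusted p = 0.307) without the block and -0.66 ± 0.16 (-0.995 to -0.33, adjusted p = 0.00578) with it. MXD1 and MXI1 were lower with siACAT1-2 in 6 of 6 pairs in log2 CPM and in 5 of 6 in RPKM, with fitted differences of -0.46 ± 0.13 (adjusted p = 0.0141) and -0.70 ± 0.14 (adjusted p = 0.00146) with the block. Without the block neither passed the test, at adjusted p of 0.510 and 0.214. Without the block 0 of 9 members were called in this comparison, against 2.56% of all genes tested, with 1 (MXI1) at an unadjusted p under 0.05 and 0 called by DESeq2 or limma. With the block 3 of 9 were called, against 20.6% of all genes. ACAT1 itself was lower with siACAT1-2 than with siACAT1-1, by -0.62 ± 0.15 (adjusted p = 0.0340).

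**Figure D2:**
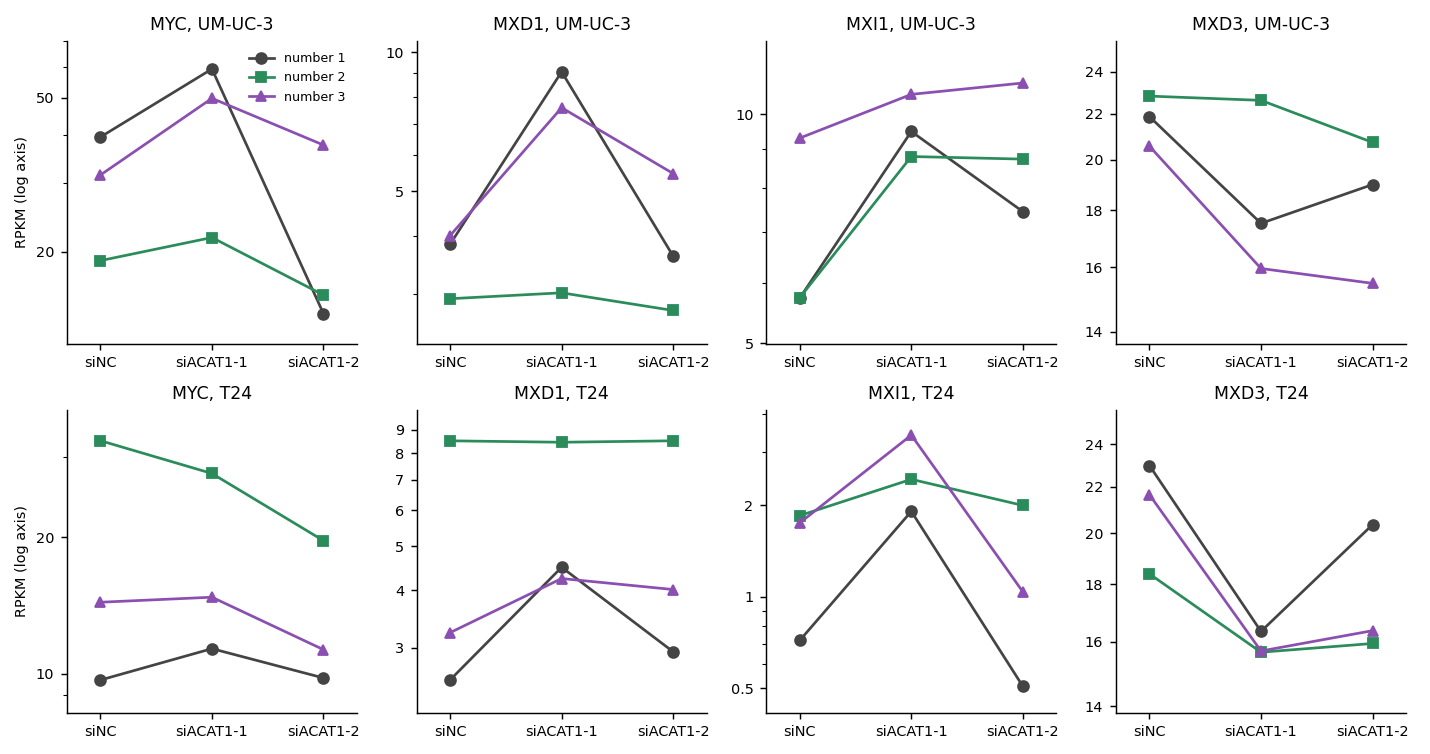
RPKM (y axis, log scale) of MYC, MXD1, MXI1 and MXD3 with each siRNA (x axis), with the 3 libraries of the same replicate number joined by a line, UM-UC-3 above and T24 below. MYC is lower with siACAT1-2 than with siACAT1-1 on all 6 lines, and MXD3 is below its siNC value at both siRNAs on each line in RPKM, by as little as 22.6 against 22.8 in UM-UC-3 number 2.

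Replicate number was the largest source of spread for MYC in T24. It took 85.7% of the variance of log2 CPM among the 9 T24 libraries, where the siRNA took 8.69%, while in UM-UC-3 the shares were 37.6% and 36.7%. In T24 the libraries numbered 2 had 19.7 to 32.6 RPKM and the other 6 had 9.69 to 14.8, with no overlap. MXD1 followed the same numbers, with 8.45 to 8.51 RPKM in the T24 libraries numbered 2 and 2.55 to 4.50 in the others, and replicate number took 86.7% of its variance there. MAX in T24 (84.7%), MNT in UM-UC-3 (95.2%), MLX in UM-UC-3 (84.6%) and MYCL in UM-UC-3 (84.5%) were likewise spread mostly by number. MYCL was at 0.692 to 0.825 RPKM in the UM-UC-3 libraries numbered 3 and at 0.0739 to 0.273 in the other 6. MNT in UM-UC-3 was at 2.85 to 3.07 RPKM in number 2, 4.35 to 5.001 in number 1 and 5.15 to 6.40 in number 3. MXD4 had lower shares for number, at 23.6% in UM-UC-3 and 31.2% in T24. In T24 the urothelial marker sum given above was lowest in the libraries numbered 2, where MYC was highest, and its part in the result was not tested.

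**Figure D3:**
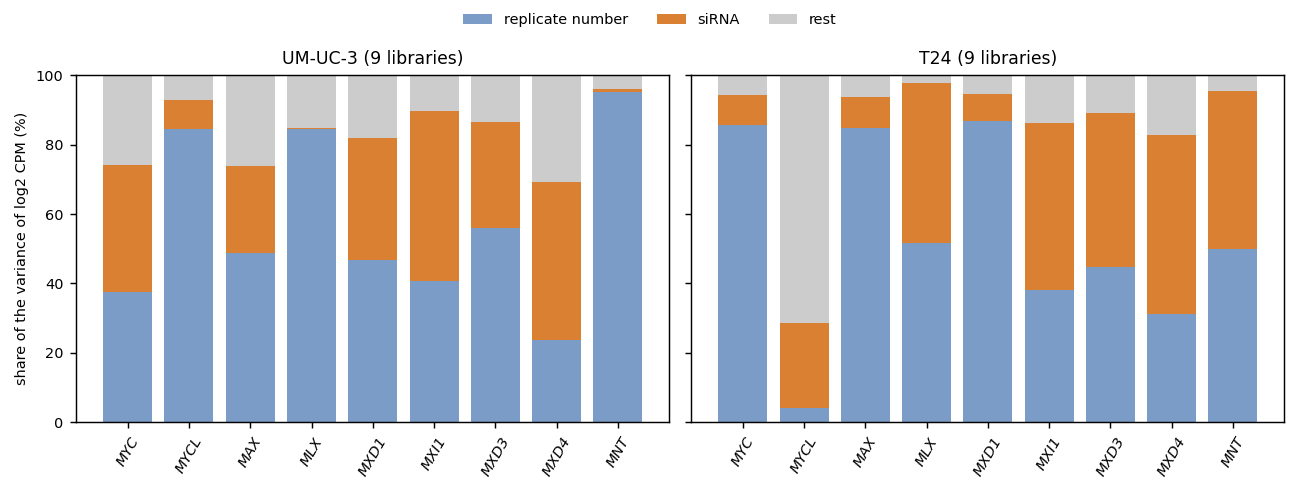
Share of the variance of log2 CPM (y axis, percent) taken by replicate number, by siRNA and by the rest, for the 9 tested genes (x axis) over the 9 libraries of each line. Replicate number takes 85.7% for MYC and 86.7% for MXD1 in T24, and the siRNA takes its largest share for MXD4 in T24, at 51.7%.

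MXD3 (chromosome 5, 177301461 to 177312757, minus strand) fell by 0.29 on the log2 scale after knockdown, a fold of 0.819, in the fit with the replicate block (SE 0.07, 95% interval -0.43 to -0.15, adjusted p = 0.00778). Without the block the value was -0.28 ± 0.11 and did not pass (adjusted p = 0.371). With the block but without the UM-UC-3 libraries numbered 3, MXD3 was not called either. MXD3 had 21.9, 22.8 and 20.6 RPKM in the UM-UC-3 siNC libraries, 17.5, 22.6 and 15.96 with siACAT1-1 and 19.0, 20.7 and 15.5 with siACAT1-2. In T24 it had 23.0, 18.4 and 21.6 RPKM with siNC, 16.3, 15.7 and 15.7 with siACAT1-1 and 20.3, 15.9 and 16.4 with siACAT1-2. On the scale of log2 CPM, MXD3 was lower in 11 of 12 pairs of a knockdown and an siNC library of the same line and number, and the twelfth differed by 0.01, while in RPKM it was lower in 12 of 12. Each siNC library is paired with both siRNAs, so the 12 pairs are not independent. The same holds wherever pairs with siNC are counted over both siRNAs. In T24 the siACAT1-1 group lay wholly below the siNC group. Its exon overlap with PRELID1 and RAB24, given above, bears on these values, and whether reads were counted by strand is not given in the sources used here.

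MXI1, MXD1 and MXD4 were called higher after knockdown in the fit with the block only. MXI1 was at 0.38 ± 0.12 (adjusted p = 0.0470), MXD1 at 0.35 ± 0.11 (adjusted p = 0.0468) and MXD4 at 0.35 ± 0.11 (adjusted p = 0.0417) on the log2 scale, which are folds of 1.30, 1.28 and 1.27. Without the block their values were similar, at 0.36, 0.34 and 0.32, with adjusted p of 0.622, 0.725 and 0.506. All 3 lie close to the threshold of 0.05, and with the UM-UC-3 libraries numbered 3 left out the block called MXD4 alone of the 9 members. In all, 0 of 9 members were called in the mean knockdown comparison without the block, against 0.223% of all genes, with 1 (MXD3) at an unadjusted p under 0.05 and 0 called by DESeq2 or limma. With the block 4 of 9 were called, against 12.4% of all genes. The median log2 fold change of the 9 members was 0.16, beside -0.00126 for all genes.

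MXI1 (chromosome 10, 110207605 to 110287365, plus strand), known for binding SIN3, was called with the block in T24 with siACAT1-1. Its RPKM were 0.719, 1.85 and 1.75 with siNC, 1.91, 2.43 and 3.40 with siACAT1-1 and 0.508, 2.00 and 1.04 with siACAT1-2. All 3 siACAT1-1 values were above all siNC values, and the siACAT1-2 values overlapped siNC. The log2 fold change with siACAT1-1 was 0.94 ± 0.20 with the block (adjusted p = 0.00452) and 0.87 ± 0.37 without it (adjusted p = 0.371). In UM-UC-3, where MXI1 was at 5.74, 5.74 and 9.30 RPKM with siNC, it was at 9.49, 8.80 and 10.6 with siACAT1-1 and 7.45, 8.73 and 10.99 with siACAT1-2. It was above siNC in 6 of 6 UM-UC-3 pairs, while the groups overlapped and neither comparison passed the test (adjusted p = 0.138 and 0.412 with the block).

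MXD4 (chromosome 4, 2247432 to 2262294, minus strand) was at 1.54, 1.66 and 2.86 RPKM in the T24 siNC libraries, at 3.74, 2.36 and 4.14 with siACAT1-1 and at 2.51, 2.77 and 2.97 with siACAT1-2. It was higher in 6 of 6 T24 pairs. The log2 fold change was 0.79 ± 0.18 (adjusted p = 0.00637) with siACAT1-1 and 0.51 ± 0.18 (adjusted p = 0.0850) with siACAT1-2, both with the block. In UM-UC-3, MXD4 had 4.19, 3.37 and 6.82 RPKM with siNC, 3.76, 3.88 and 4.35 with siACAT1-1 and 6.13, 5.60 and 6.07 with siACAT1-2. There it was lower than siNC in 2 of 3 pairs with siACAT1-1 and higher in 2 of 3 with siACAT1-2. The effect in UM-UC-3 minus that in T24 was -0.60 ± 0.22 with the block, with an unadjusted p of 0.0117 and an adjusted p of 0.352.

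MXD1 (chromosome 2, 69897688 to 69942945, plus strand) was in UM-UC-3 at 3.84, 2.93 and 4.01 RPKM with siNC, 9.07, 3.02 and 7.59 with siACAT1-1 and 3.62, 2.76 and 5.47 with siACAT1-2. It was higher with siACAT1-1 in 3 of 3 pairs, by 0.07 to 1.19 in log2 CPM, and the fitted change was 0.76 ± 0.18 with the block (adjusted p = 0.0301) and 0.85 ± 0.46 without it (adjusted p = 0.946). Numbers 1 and 3 carried that rise, and number 2 barely moved. In T24 it had 2.55, 8.51 and 3.23 RPKM with siNC, 4.50, 8.45 and 4.25 with siACAT1-1 and 2.94, 8.51 and 4.02 with siACAT1-2, and neither siRNA passed.

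In each of the 4 comparisons of 1 siRNA with siNC in 1 line, 0 of 9 members were called by edgeR without the block, and 0 by DESeq2 or limma. The share of all genes called was 0.00993% for siACAT1-1 and 0.0546% for siACAT1-2 in UM-UC-3, and 0.124% and 0.268% in T24. Only T24 with siACAT1-1 had members at an unadjusted p under 0.05, MXI1 and MXD4. With the block, 1 member (MXD1) was called for siACAT1-1 in UM-UC-3 against 3.06% of all genes, 0 for siACAT1-2 in UM-UC-3 against 1.36%, 3 (MXD3, MXD4 and MXI1) for siACAT1-1 in T24 against 13.9%, and 0 for siACAT1-2 in T24 against 8.48%. The knockdown effect differed between the lines for 0 of 9 members in either fit, where 0% of all genes were called without the block and 0.104% with it. At an unadjusted p under 0.05 there were 0 such members without the block and 1 (MXD4) with it, and DESeq2 and limma called 0.

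**Figure D4:**
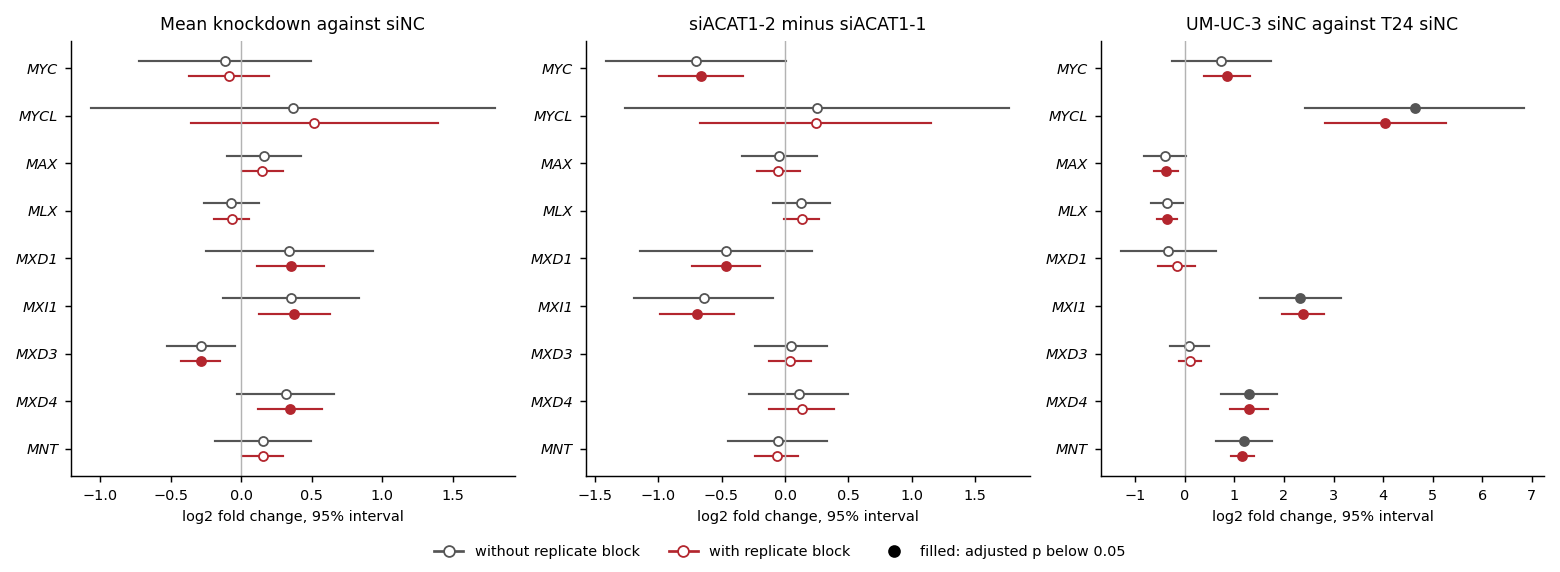
Log2 fold change with its 95% interval (x axis) of the 9 tested genes (y axis) for the mean knockdown, for siACAT1-2 minus siACAT1-1 and for UM-UC-3 siNC against T24 siNC, without the replicate block in grey and with it in red, filled where the adjusted p is below 0.05. Only the right panel has filled grey points, for MYCL (4.64), MXI1 (2.33), MXD4 (1.29) and MNT (1.19). In the left panel with the block, MXD1, MXI1, MXD3 and MXD4 are filled, and the intervals of MAX and MNT also leave 0 but are not filled. In the right panel the red intervals leave out the spread between replicate numbers.

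MAX (chromosome 14, 65006174 to 65102695, minus strand), MNT (chromosome 17, 2384060 to 2401118, minus strand) and MLX (chromosome 17, 42567068 to 42573239, plus strand) were not called in any of these knockdown comparisons, with or without the block. The mean knockdown change of MAX was 0.15 ± 0.07 (95% interval 0.00 to 0.30, adjusted p = 0.182), that of MNT 0.15 ± 0.07 (0.01 to 0.30, adjusted p = 0.170) and that of MLX -0.07 ± 0.06 (-0.19 to 0.05, adjusted p = 0.512), all with the block. MNT, which keeps MYC sites repressed when MYC is low, was above siNC in 11 of 12 pairs in log2 CPM, with a median difference of 0.13, and in 10 of 12 in RPKM. MLX was at 30.0, 33.1 and 26.7 RPKM in T24 with siNC and at 24.9, 27.8 and 20.96 with siACAT1-1, lower in 3 of 3 pairs, and reached an adjusted p of 0.0575 with the block. MYCL was at 0.52 ± 0.42 (adjusted p = 0.475) with the block, on 0 to 129 counts per library.

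Between the siNC groups of the cell lines 4 of 9 members were called without the block, all higher in UM-UC-3, against 44.3% of all genes, and 7 of 9 with the block, against 61.7%. The block is set within each line and pairs no library across the lines. For this comparison it only takes the spread between replicate numbers out of the error, so its p-values can be too small. MXI1 was 5.03-fold higher in UM-UC-3 (log2 2.33 ± 0.38, adjusted p = 1.2e-04), MXD4 was 2.44-fold higher (1.29 ± 0.27, adjusted p = 9.1e-04) and MNT was 2.28-fold higher (1.19 ± 0.26, adjusted p = 0.0016). For MXI1 and MNT every UM-UC-3 library, knockdown included, lay above every T24 library: 5.74 to 10.99 against 0.508 to 3.40 RPKM and 2.85 to 6.40 against 1.53 to 2.52. For MXD4 the siNC groups did not overlap, at 3.37 to 6.82 against 1.54 to 2.86. MYCL (chromosome 1, 39895426 to 39902256, minus strand) had 159 counts in the 3 UM-UC-3 siNC libraries and 6 in the 3 of T24 (adjusted p = 0.0018). Taking 2 counts as 1 read pair, the ratio was 26.5, with an exact 95% interval of 8.75 to 131 that covers counting error only, and 129 of the 159 counts came from the library numbered 3. Without that library MYCL was still called, at a log2 fold change of 2.90. The limma test on log2(RPKM + 1) did not call it (0.36, adjusted p = 0.123), and that on log2(RPKM + 0.1) did (1.55, adjusted p = 0.0289).

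MYC was 1.67-fold higher in UM-UC-3 siNC than in T24 siNC without the block (log2 0.74 ± 0.48, adjusted p = 0.224) and 1.80-fold with it (0.84 ± 0.22, adjusted p = 0.00269). The blocked SE and p-value leave out the spread between replicate numbers, as said above. Leaving out the T24 siNC library numbered 2 raised the unblocked value to 1.30, which passed (adjusted p = 0.0459). MAX and MLX did not pass without the block, at adjusted p of 0.116 and 0.0609. With it they were lower in UM-UC-3, at -0.39 ± 0.12 (adjusted p = 0.00667) and -0.36 ± 0.10 (adjusted p = 0.00265), under the same limit. MXD1 and MXD3 did not pass in either fit, with values of -0.34 ± 0.45 and 0.09 ± 0.19 without the block that changed sign without the T24 siNC library numbered 2, to 0.29 and -0.067. The summed RPKM of the 5 antagonists was 37.7 to 45.8 in UM-UC-3 and 26.6 to 32.5 in T24, and MXI1 made up 14.3 to 24.8% of it in UM-UC-3 and 1.82 to 11.3% in T24.

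Of the 9 members with a promoter in the RefSeq table (GRCh38.p14; 12 promoters of 250 bases before to 50 after the start), MXD4, MNT and MLX have the E-box CACGTG, the site that the network's own dimers bind, once each, searched on both strands, where it reads the same. It is in 7.26% of the 35116 promoters of that length, a share per promoter and not per gene. The 3 are shown together because they hold the site. MXD4 and MNT were higher in UM-UC-3, and MLX was lower, at an adjusted p of 0.0609 in edgeR without the block. MXI1 and MYCL, also called higher in UM-UC-3, have no E-box in their promoters. A link of the site to the difference between the lines was not tested. Each sequence runs 5′ to 3′ on the gene's own strand up to the first exon base in the deposited table, with the E-box in capitals. The MXD4 stretch is at chr4:2262295-2262359 (minus strand, E-box from base 13), the MNT stretch at chr17:2401119-2401310 (minus strand, from base 58) and the MLX stretch at chr17:42566850-42567067 (plus strand, from base 201). The match is one of letters, and binding was not measured here.
MXD4: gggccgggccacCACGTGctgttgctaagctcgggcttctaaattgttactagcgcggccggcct
MNT: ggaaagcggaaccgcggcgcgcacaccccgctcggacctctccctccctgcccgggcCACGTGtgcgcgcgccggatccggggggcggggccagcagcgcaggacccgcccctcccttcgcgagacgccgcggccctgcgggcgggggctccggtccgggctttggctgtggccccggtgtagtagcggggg
MLX: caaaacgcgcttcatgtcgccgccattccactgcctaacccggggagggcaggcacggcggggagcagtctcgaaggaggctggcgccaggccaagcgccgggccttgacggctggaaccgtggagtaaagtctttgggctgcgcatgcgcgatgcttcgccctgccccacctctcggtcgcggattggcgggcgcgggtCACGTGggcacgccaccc

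The genes whose pattern was most like that of MYC were ranked by Pearson's r of log2 CPM over the 18 libraries, after each line's mean was subtracted. The 5 highest were ZCCHC8 (r = 0.960), a subunit of the nuclear exosome targeting complex, OSER1 (0.944), CEBPG (0.932) and ATF3 (0.927), both bZIP factors of the stress response, and ROBO4 (0.923), a guidance receptor known from endothelium. These r are descriptions over libraries that share replicate numbers. ATF3 was at 9.69 to 20.3 RPKM in the T24 libraries numbered 2 and at 0.561 to 1.65 in the other 6. In UM-UC-3 it was at 0.717 to 0.968 in number 2 and 1.28 to 23.4 in the others, so it split the libraries by number in both lines as MXD1 did. Among the members MXD1 was nearest to MYC (r = 0.858, with 82 other tested genes above it), then MAX (0.633), MNT (0.572) and MXI1 (0.428), and MXD3 was the most opposed (-0.51).

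Outside the 10 members, 81 of 84 matched genes from 9 lists of partners, regulators and targets were tested. In the mean knockdown comparison 0 were called without the block, with 12 at an unadjusted p under 0.05 and 1 called by DESeq2. With the block 22 were called, 5 higher and 17 lower, which is 22 of 81 beside 12.4% of all genes in that fit. Of 29 genes that MYC is known to activate, 10 were called with the block, 9 lower and 1 higher, and 25 of the 29 had a value below 0 without it. The median of the 29 was -0.12, beside -0.00126 over all genes. The 4 of these with the smallest p in the fit without the block, given here with the block, were APEX1, a DNA repair endonuclease (-0.31 ± 0.07, adjusted p = 0.00738), FBL, the methyltransferase of ribosomal RNA (-0.31 ± 0.06, adjusted p = 0.00278), BOP1, of 60S ribosome assembly (-0.31 ± 0.06, adjusted p = 0.00266), and TERT, the telomerase catalytic subunit (-0.50 ± 0.16, adjusted p = 0.0425). NCL (-0.10), ODC1 (0.07) and CDK4 (-0.18) did not pass with the block. Of 5 genes MYC is known to repress, all were above 0 in the mean over both lines without the block, with a median of 0.65. The medians were 1.21 and 0.86 for siACAT1-1 and siACAT1-2 in UM-UC-3 and -0.12 and 0.06 in T24, where 3 and 2 of the 5 were below 0, and CDKN2B and NDRG2 had 0 counts in the UM-UC-3 siNC libraries. With the block 2 were called: the CDK inhibitor CDKN1A (0.60 ± 0.14, adjusted p = 0.00978) and the stress-responsive NDRG1 (1.05 ± 0.15, adjusted p = 1.4e-04).

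Genes of MYC protein stability and AKT signaling were also called with the block. FBXW7, the ubiquitin ligase subunit that marks phosphorylated MYC for degradation, was at 0.27 ± 0.08 (adjusted p = 0.0363). AURKA, a mitotic kinase that stabilizes MYC proteins, was at -0.71 ± 0.12 (adjusted p = 7.1e-04) and KIAA1524 (CIP2A), which protects MYC from a phosphatase, at -0.24 ± 0.08 (adjusted p = 0.0493). GSK3B (0.16) and AKT1 (-0.19), the kinases the study is about, did not pass, at adjusted p of 0.180 and 0.0749. FBXW7 was the 1 gene of the 81 called between the siRNAs without the block, where 2.56% of all genes tested were called. It was at -0.57 ± 0.12 for siACAT1-2 minus siACAT1-1 (adjusted p = 0.0193). Its RPKM were 2.72 to 3.16 with siNC, 3.72 to 4.16 with siACAT1-1 and 3.02 to 3.20 with siACAT1-2 in UM-UC-3, and 1.60 to 1.83, 2.19 to 3.24 and 1.34 to 1.85 in T24. The siACAT1-1 groups lay above both others in each line.

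The calls in the smaller lists are given beside the same 12.4% of all genes. Of 9 genes of the SIN3 corepressor, which the MXD proteins recruit, RBBP4 (-0.28), RBBP7 (-0.19) and SAP30 (-0.22) were called lower with the block. Of 11 MYC cofactors the acetyltransferase KAT2A was (-0.27), and of 5 tested regulators of MYC mRNA, IGF2BP3 was higher (0.40) and HNRNPD lower (-0.18). The network's other bHLH members MGA (-0.02), a MAX partner with a T-box domain, and MLXIP (-0.09) did not pass in this comparison. Between the siRNAs with the block, MGA was lower with siACAT1-2 (-0.44, adjusted p = 0.00149) and MLXIP higher (0.29, adjusted p = 0.0241). MLXIPL did not pass the filter on low counts. PVT1, the noncoding neighbor of MYC, was at 1.64 to 3.70 RPKM over all libraries, at 0.05 after knockdown (adjusted p = 0.756) and at -0.33 between the siRNAs (adjusted p = 0.0178), with the block.

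TXNIP and ARRDC4, arrestin-domain genes that MondoA and MLX are known to induce were both lower in UM-UC-3. TXNIP was 0.117 to 0.885 RPKM over the UM-UC-3 libraries and 2.12 to 24.1 over those of T24, a log2 difference between the siNC groups of -4.96 (adjusted p = 0.00123). ARRDC4 was 0.191 to 0.754 and 0.332 to 3.03 RPKM, a log2 difference of -2.23 (adjusted p = 0.0122). Both were highest in the libraries numbered 2 of each line: TXNIP at 17.6 to 24.1 RPKM in T24 number 2 and 2.12 to 7.87 in the others. Neither passed in the mean knockdown comparison (-0.38 and 0.14, adjusted p = 0.205 and 0.651 with the block), and both were higher with siACAT1-2 than with siACAT1-1 with the block, by 0.77 (adjusted p = 0.0174) and 0.76 (adjusted p = 0.00785).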

How the data were processed

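Bulk RNA-seq of 18 libraries was used, from 2 deposited tables of 39496 genes, one of raw counts and one of RPKM. Per the paper's methods and the submitters' processing notes, trimming was by Trimmomatic 0.36, alignment to GRCh38 by STAR 2.5.3 and counting over exons by featureCounts (Subread 1.5.1). The deposited counts were not normalized. The authors' RPKM equal the counts divided by the listed exon length in kilobases and by the column's total, on the usual scale. The kit adds molecular identifiers to a stranded library. Their use, strand at counting and the annotation release are not given in the sources used here. Of the counts from 1 to 20, 73.0% were even, so both mates of a pair appear to have been counted.

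Counts were fitted in edgeR 4.0.16 (TMM, filterByExpr, glmQLFit and glmQLFTest) with 6 group coefficients over all 18 libraries. P-values were adjusted by Benjamini-Hochberg over 20144 genes within each comparison, and a gene was called below 0.05. Log2 CPM used the TMM factors and a prior count of 2. RPKM was used for levels, for the directions of pairs where named, and in the limma alternatives. The members and lists were chosen with earlier results of these data known. Named in the text are the members, ACAT1, up to 4 genes per list called in the mean knockdown comparison by the smallest p without the block, 13 genes fixed by name, and the 5 most like MYC. A result on 1 gene of the lists is not reported here.

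Replicate number pairs libraries within a line: deviations from group means correlated at r = 0.115 to 0.576 in UM-UC-3 and 0.356 to 0.686 in T24 for the same number, and at -0.55 to 0.27 and -0.57 to 0.21 for different numbers. The deviations within a group sum to 0, so the values for different numbers follow in part from those for the same number. The labels number the libraries as biological replicates, and the series' design text describes separate experiments. The fit with that block is given where it changes a call. Alternatives were DESeq2 1.42.0, upper-quartile scaling, other filters, limma 3.58.1 on log2(RPKM + 1) and log2(RPKM + 0.1), each line alone, libraries left out, and 2 fits added after seeing the data, the block without the UM-UC-3 libraries numbered 3 or without the T24 libraries numbered 2. The mean knockdown comparison in edgeR was tested on simulated data, without the block where no replicate effect was put in and with the block where one was. The other comparisons and the DESeq2 and limma steps were not tested in that way.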

Additional observations from a re-analysis of the deposited data

How the results depend on the processing

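Most values kept their direction and their side of the threshold, and the cause of the exceptions was not tested. The replicate block raised the members called from 0 to 4 in the mean knockdown comparison, from 0 to 1 with siACAT1-1 in UM-UC-3, from 0 to 3 with siACAT1-1 in T24, from 0 to 3 between the siRNAs and from 4 to 7 between the lines, and the pathway genes called from 0 to 22. It changed no other of these counts. Between the lines the blocked count rests on an error without the spread between replicate numbers, as given above. With the block and without the UM-UC-3 libraries numbered 3, an alternative chosen after seeing the data, the counts in the same order were 1, 0, 3, 3 and 7, and 12 pathway genes. With the block and without the T24 libraries numbered 2, also chosen after seeing the data, they were 4, 2, 3, 3 and 6, with 1 for siACAT1-2 in T24 and 24 pathway genes. Without a filter on low counts 1 member was called for siACAT1-1 in T24, 2 between the siRNAs and 2 pathway genes. DESeq2 called 1 pathway gene. Without the T24 libraries numbered 2 and without the block, 1 member was called between the siRNAs and 2 pathway genes in the mean knockdown. Leaving out 1 library at a time gave 0 to 1 members between the siRNAs (1, MXI1, without T24 siACAT1-2 replicate 2) and 0 to 1 pathway genes (1 without T24 siNC replicate 2). The MYC knockdown value ran from -0.26 to 0.19 as single libraries were left out, and was 0.0038 without the T24 libraries numbered 2. Between the siNC groups, MXD1 ran from -0.62 to 0.29 and MXD3 from -0.067 to 0.20 as single libraries were left out. Without the T24 libraries numbered 2 they were 0.30 and -0.056, and with the block as well 0.30 and -0.053. With 3 libraries per group, depth does not limit MYC, MAX or MLX, while MYCL and MYCN rest on few counts.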

Other observations

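Of the genes in the partner, regulator and target lists, 4 had counts near 0 in the siNC libraries of 1 line, and they were chosen after their values were seen. CCND2, a D-type cyclin that MYC is known to activate, had 1003 to 1824 counts per library in UM-UC-3 siNC and 0 to 6 in T24 siNC, a ratio of 509 (exact 95% interval 198 to 1869, taking 2 counts as 1 read pair and covering counting error only). IGF2BP1, an RNA-binding protein that stabilizes MYC mRNA, had 4 to 11 counts in UM-UC-3 siNC and 743 to 919 in T24 siNC, 123-fold higher in T24 (66.7 to 257). CDKN2B, a CDK inhibitor repressed by MYC, had 0 counts in the 3 UM-UC-3 siNC libraries and 99 to 330 in those of T24. NDRG2, also on the list of genes MYC represses, had 0 counts and 18 to 33.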
